A study of Mus musculus with 12 samples.

Results

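The motile cilia axoneme genes were taken by name from the count table of cultured mouse astrocytes: *Foxj1*, *Mcidas* and every gene named as an axonemal dynein heavy chain (*Dnah*), intermediate or light chain (*Dnaic*, *Dnal*), dynein assembly factor (*Dnaaf*), cilia and flagella associated protein (*Cfap*), tektin (*Tekt*), radial spoke protein (*Rsph*) or sperm associated antigen (*Spag*) followed by a number. This gave 49 of 18903 genes, and *Mcidas* is not analysed here. They were 20 *Cfap*, 6 *Dnah*, 6 *Rsph*, 6 *Spag*, 4 *Dnaic* or *Dnal*, 3 *Dnaaf* and 3 *Tekt* genes and *Foxj1*. A shared name is not a shared function: SPAG5 is a protein of the mitotic spindle and SPAG9 a scaffold of kinase signalling and vesicle transport. Neighbouring names under other symbols, such as the *Drc* and *Ccdc* genes of the axoneme, are covered separately in a later paragraph.

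Motile cilia are moved by an axoneme, a ring of microtubule doublets around a central pair, on which rows of dynein arms pull. Outer and inner dynein arms are built from heavy chains with motor activity and from intermediate and light chains, and they are put together in the cytoplasm by assembly factors before they reach the cilium. Radial spokes and central pair proteins pass signals to the arms, and tektins and other microtubule inner proteins strengthen the doublets. In the brain this machinery is known from the multiciliated ependymal and choroid plexus cells, where the transcription factor FOXJ1 switches on many axonemal genes, whereas astrocytes carry a primary cilium that lacks dynein arms.

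The counts came from primary astrocytes that were cultured from mouse brains at 3 ages, P1, P6 and P8, and each combination of age and genotype had 2 libraries, 12 in all. The groups labelled WT were hGFAP-cre::*Rack7* +/+ and those labelled cKO hGFAP-cre::*Rack7* fl/fl, so both carried the Cre transgene, which a human GFAP promoter drives in neural stem cells of the dorsal forebrain and their descendants, and the cKO had exons 3 and 4 of *Rack7* floxed. Meninges were stripped off, the cells were grown on Matrigel, and shaking was used to remove microglia and oligodendrocytes. The ages are those at dissection, and the cells were then cultured until confluent. Rises and falls between ages therefore compare separate cultures, and age cannot be told apart from culture preparation. The number of animals per culture is not stated, and p-values measure the spread between these libraries.

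Library totals lay between 54413504 and 89183250 counts. *Zmynd8*, the gene of RACK7, was higher in the libraries labelled cKO at each time point, with mean CPM (counts scaled to library size) of 136 against 214 at P1, 115 against 236 at P6 and 102 against 166 at P8 (adjusted p in edgeR 3.16e-05, 4.97e-07 and 3.78e-06). Counts over the whole gene do not show whether the floxed exons were lost, and genotypes are therefore given as labelled. The study also probed RACK7 protein in these cultures by immunoblot, which is not analysed here. The astrocyte markers *Gfap* and *Aqp4* were abundant in every group, with group means of 179.9 to 569 CPM and 111 to 779.5 CPM. Both were among 6 of 10 astrocyte markers called lower in cKO at P8, beside 8.37% of all genes tested. Fibroblast markers were also present. In P8-WT, 8 of them summed to 28780.5 to 30929 CPM, beside 1799 to 2178 CPM for the 10 astrocyte markers. In bulk cultures, fewer cells of a type and less RNA per cell cannot be told apart.

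Of the 49 genes, 44 had a mean of at least 1 CPM over the 12 libraries, that is 89.8% against 80.1% of all genes in the table. The 5 below it were *Cfap73*, *Cfap77*, *Cfap99*, *Cfap161* and *Tekt4*. At least 1 CPM was reached in every library by 31 genes, and as the mean of at least 1 group by 48, with *Cfap73* as the exception. The number over 1 CPM was 46 in P1-WT and 45 in P1-cKO, 43 and 39 at P6, and 42 and 37 at P8. All 49 passed the filter on low counts, and each exceeded the equivalent of 10 counts in at least 2 libraries of either label, so none was kept through one genotype alone.

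Per kilobase of annotated exon, *Foxj1* had the highest mean level of all members with 44.5 CPM/kb. *Spag9* followed with 24.5 and *Cfap36*, which encodes a partner of the small GTPase ARL3, with 24.1 CPM/kb. The highest of each other class were *Rsph3a* of the spokes with 9.11, *Dnal4* of the dynein light chains with 7.56, *Dnaaf5* of the assembly factors with 7.14, *Tekt1* of the tektins with 1.73 and *Dnah9* of the heavy chains with 0.932 CPM/kb. Heavy chain transcripts were thus scarce for their length, with a median of 0.346 CPM/kb, beside a regulator at a much higher level. *Rsph3a* and *Rsph3b* are near-identical copies, and their counts are uncertain for that reason. An exon of 23 members overlaps another gene in the GENCODE vM21 annotation, for 22 of them an antisense gene, and the strand setting of the counting is not stated. The 23 include every heavy chain but *Dnah5*, and also *Dnaic1*, *Cfap100* and *Dnaaf3*.

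The promoters of the members were searched for the X-box, the palindromic site bound by RFX factors, which act with FOXJ1 on ciliary genes. RefSeq windows on GRCm38.p6, from 250 bases before to 50 bases after a start, were at hand for 40 members. It was spelled as the arm GTTNCC, the spacer AT and the arm GGNAAC, and searched on both strands. This form was found in 0 of the 40 and in 0.152% of all genes with a window, and with any 2 bases as the spacer in 0 and 0.529%. With the first G of the arm GGNAAC open as well, it was found in 4 members, 10% against 0.936% of all genes. The single-arm site GTTGCCAT, which can lie inside the longer letters, was found in 6 members, 15% against 1.54%, and its shorter core GTTGCC in 14, 35% against 14.1%. The forkhead letters GTAAACA were present in 2 members, 5% against 4.05%. Such matches are letters in a window and not sites of binding.

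The stretches below show 3 of the 4 matches to the open X-box and 2 single-arm sites, chosen because 3 of these genes were lower in cKO at P8 and the others were not. Each is given 5′ to 3′ on the strand of the gene, with the match in capitals, for *Cfap44* (chr16:44394764-44394793, plus strand), *Cfap45* (chr1:172521103-172521132, plus), *Dnaaf2* (chr12:69198425-69198454, minus), *Tekt1* (chr11:72361879-72361908, minus) and *Cfap161* (chr7:83794862-83794891, minus).
Cfap44: ggagggacGTTGCTATGGCAACcgcagtaa
Cfap45: gttcttggGTTGCTATGGTAACgcgtcagc
Dnaaf2: tcccaggcGTTACTATGGCAACaaagcacg
Tekt1: gcgtccgtccgGTTGCCATagagaccgcag
Cfap161: gcctggtcgtcATGGCAACgaagcacgcta

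All 5 matches lay before the RefSeq start of their window, the nearest, that of *Dnaaf2*, 17 to 4 bases from it. The GENCODE vM21 genes *Cfap45*, *Tekt1* and *Cfap161* start further upstream, so that their matches lie inside the gene as annotated there. The single-arm site was present in 3 of 15 members with a window that were lower in cKO at P8 and in 3 of the 25 others. *Cfap44* and *Dnaaf2*, which both hold the open X-box, had different values: at P8 *Cfap44* was called lower in cKO, and *Dnaaf2* had a log2 fold change of -0.0049.

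To ask how genotype relates to the axonemal genes, cKO was compared with WT at each time point with edgeR's quasi-likelihood test over all 17938 genes tested, and a gene was called where the Benjamini-Hochberg adjusted p fell below 0.05 with a change of 1.5-fold or more. Calls in the direction of lower levels in cKO went from 3 members at P1 to 7 at P6 and 19 at P8, or 6.12%, 14.3% and 38.8%. Such calls also became more frequent over all genes tested, with 0.892%, 6.38% and 8.37%. The heavy chains of the dynein arms led the calls among members, and by P8 all 6 were lower. *Foxj1* went the other way and was higher in cKO at P6 and P8.

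**Figure D1:**
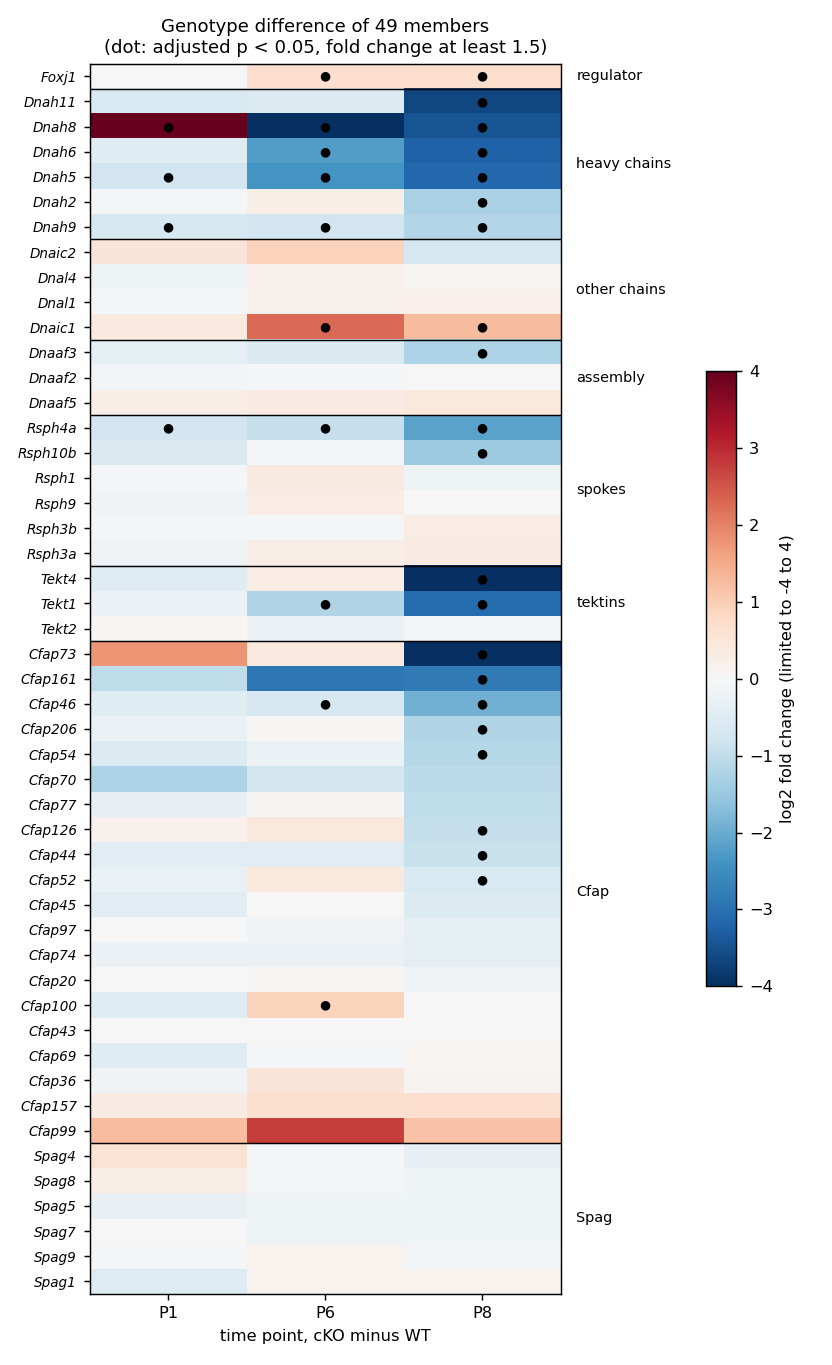
Log2 fold change of cKO minus WT at P1, P6 and P8 for 49 members, grouped by class and ordered by the P8 value, with colours limited to -4 and 4 and a dot for each call. Dots for lower levels number 3, 7 and 19 from P1 to P8, where 0.892%, 6.38% and 8.37% of all genes tested were called lower. The colour of Dnah8 at P1 and of Cfap73 at P8 comes from a group with no reads and has no fixed size.

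At P1, 3 members were called lower in cKO, 6.12% against 0.892% of all genes tested, and 1 was called higher, against 4.01%. The 3 were *Dnah5* and *Dnah9*, heavy chains of the outer arm, and *Rsph4a*, a protein of the radial spoke head. *Dnah5* (chr15:28203752-28472052, plus strand) had 17.2 and 17.5 CPM in the WT libraries and 10.3 and 10.1 CPM in the cKO libraries (log2 fold change -0.77, SE 0.19, adjusted p = 0.0362 in edgeR). *Dnah9* (chr11:65831282-66168551, minus) had 33.6 and 30.5 CPM against 21.1 and 19.8 CPM (-0.65, SE 0.15, adjusted p = 0.0243 in edgeR). For *Rsph4a* (chr10:33905111-33916021, plus) the levels were 18.5 and 16.0 CPM against 9.52 and 10.8 CPM (-0.76, SE 0.20, adjusted p = 0.0478 in edgeR). In all 3 both cKO libraries lay below both WT libraries.

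The P1 calls were the least stable. *Dnah5* lost its call without any 1 of the 4 P1 libraries or without P6-WT replicate 1 (adjusted p up to 0.150 in edgeR), *Dnah9* without any 1 of the P1 libraries (up to 0.132), and *Rsph4a* without any 1 of the P1, P6-WT or P8-cKO libraries (up to 0.227), each keeping its direction. The median log2 fold change was -0.14 over the members and 0 over all genes tested. Both cKO libraries were below both WT libraries for 25 of the 49 members, beside 25.4% of all genes, and above them for 8, beside 25.8%.

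At P6, 7 members were lower in cKO, 14.3% against 6.38% of all genes, and 3 were higher, against 7.16%. *Dnah5* had 4.07 and 3.75 CPM in WT and 0.853 and 0.638 CPM in cKO (log2 fold change -2.39, SE 0.22, adjusted p = 4.86e-05 in edgeR). *Dnah6* (chr6:73017606-73221651, minus), a heavy chain of the inner arm, had 3.12 and 2.76 CPM against 0.457 and 0.793 CPM (-2.23, SE 0.27, adjusted p = 0.000288 in edgeR). Both genes stood in cKO at a small share of their WT level, without overlap. *Dnah9* (-0.76), *Rsph4a* (-0.92), *Tekt1* (-1.21) and the central pair gene *Cfap46* (-0.66) were lower by less.

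The last 4 depended on single libraries. *Dnah9* and *Rsph4a* lost the call at P6 without P6-cKO replicate 1, *Cfap46* without P6-cKO replicate 1 or either P6-WT library, and *Tekt1* without any 1 of the 12 libraries except P6-cKO replicate 1. *Dnah5*, *Dnah6* and *Dnah8* kept it in all 12 fits. The median of the members at P6 was -0.01 on the log2 scale and that of all genes 0, and both cKO libraries were below both WT libraries for 16 members (29.3% of all genes) and above them for 17 (29.7%). At P6 the list was thus close to all genes in its median and in these counts.

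Higher in cKO at P6 were *Foxj1*, *Dnaic1* and *Cfap100*. *Dnaic1* (chr4:41569775-41638158, plus), an intermediate chain of the outer arm, had 2.05 and 2.09 CPM in WT and 11.1 and 8.98 CPM in cKO (log2 fold change 2.28, SE 0.32, adjusted p = 0.000752 in edgeR). An exon of it overlaps the antisense gene *Enho*, and an exon of *Cfap100* overlaps the antisense gene *Zxdc*. Reads of either pair cannot be told apart without strand. *Cfap100* (chr6:90403479-90428797, minus), named for a factor of inner arm dynein, had 5.13 and 3.53 CPM against 8.92 and 7.14 CPM (0.89, SE 0.19, adjusted p = 0.0078 in edgeR) and lost the call without P6-cKO replicate 1 (adjusted p = 0.0533 in edgeR). The counts given to *Dnaic1* and to *Dnah5*, whose products sit in the same arm, thus differed in opposite directions in the same libraries. The part of *Enho* reads in those of *Dnaic1* was not tested.

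At P8, 19 members were lower in cKO, 38.8% against 8.37% of all genes, and 2 were higher, against 11.2%. The median log2 fold change was -0.38 over the members and 0.01 over all genes. Both cKO libraries were below both WT libraries for 30 members, beside 33.8% of all genes, and above them for 9, beside 36.9%. Of the 19, 14 kept the call whichever library was left out, and the count fell to 14 at the lowest, without P8-cKO replicate 1. *Cfap52*, *Cfap73*, *Cfap126*, *Cfap161* and *Cfap206* lost it in some of these fits.

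All 6 heavy chains were among the 19. *Dnah5* had 4.39 and 5.57 CPM in WT and 0.450 and 0.678 CPM in cKO (log2 fold change -3.13, SE 0.22, adjusted p = 5.53e-06 in edgeR). *Dnah6* had 4.36 and 4.53 CPM against 0.368 and 0.571 CPM (-3.23, SE 0.28, adjusted p = 1.89e-05 in edgeR). *Dnah11* (chr12:117877982-118199043, minus), an outer arm chain, had 2.29 and 3.05 CPM against 0.164 and 0.262 CPM (-3.63, SE 0.35, adjusted p = 3.97e-05 in edgeR). All 3 were under 1 CPM in both P8 libraries labelled cKO. *Dnah9* kept more of its level, with 11.0 and 12.2 CPM against 4.75 and 5.58 CPM (-1.17, SE 0.15, adjusted p = 0.000278 in edgeR), as did the inner arm chain *Dnah2* (chr11:69420809-69549110, minus) with 3.60 and 2.30 CPM against 1.32 and 1.09 CPM (-1.28, SE 0.22, adjusted p = 0.00175 in edgeR).

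**Figure D2:**
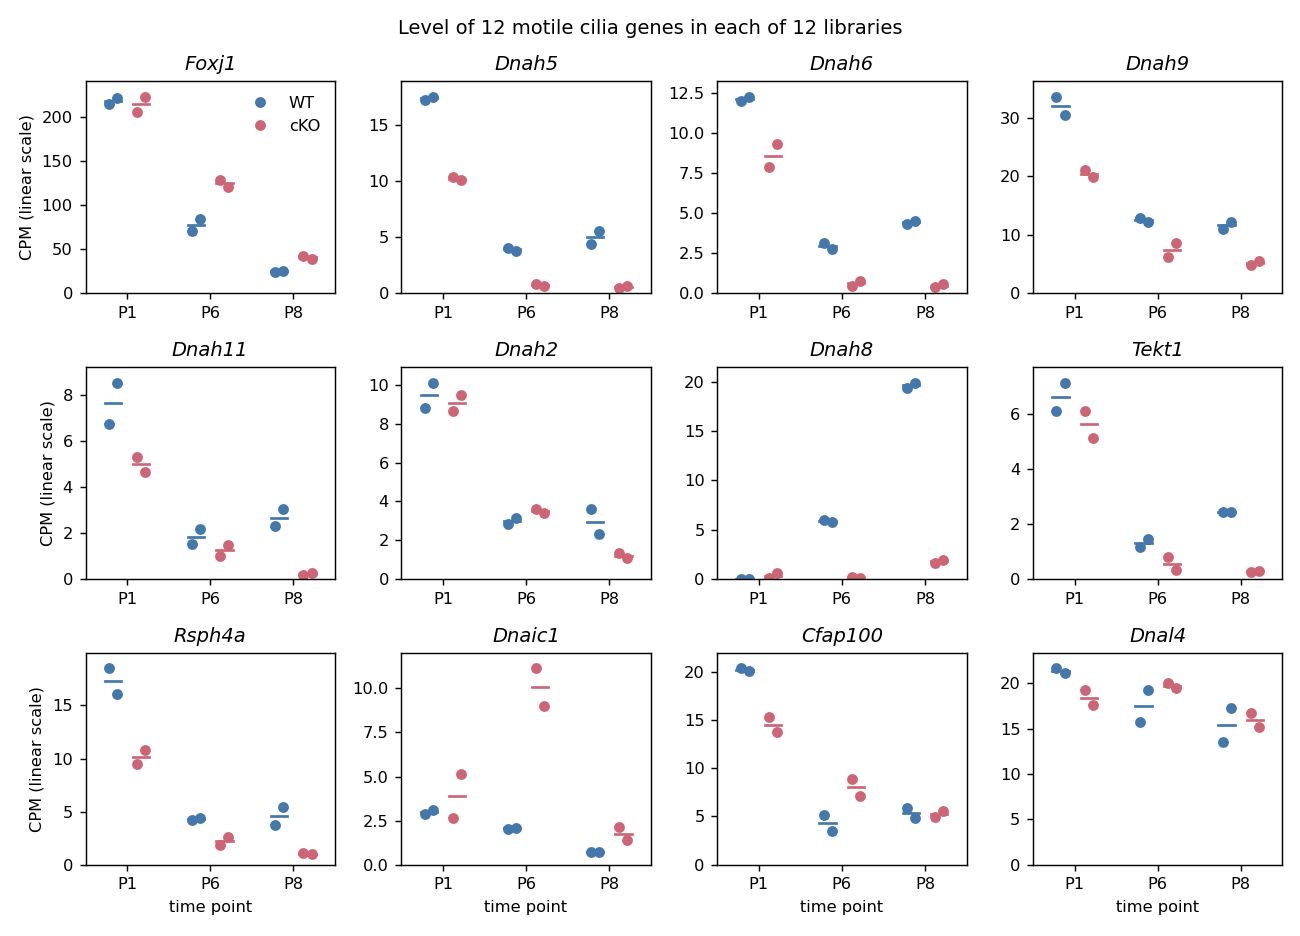
CPM of 12 members in each library by time point, on linear axes from 0, with a point for each library and a line at the mean of 2. Foxj1 fell over time under either label and was higher in cKO at P6 and P8, Dnah5, Dnah6 and Dnah11 were near 0 in cKO at P8, Dnah8 rose in WT, and Dnal4 is shown as a light chain with no call.

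Spokes and tektins were split. *Rsph4a* had 3.78 and 5.42 CPM in WT and 1.09 and 0.999 CPM in cKO at P8 (log2 fold change -2.14, SE 0.22, adjusted p = 6.85e-05 in edgeR), and *Rsph10b* (chr5:143933035-143985719, plus), which shares exon positions with *Pms2* on the same strand, had 4.54 and 2.81 CPM against 1.46 and 1.25 CPM (-1.44, SE 0.26, adjusted p = 0.00245 in edgeR). The spoke head genes *Rsph1* and *Rsph9* were not called, with -0.21 and 0.02 (adjusted p = 0.380 and 0.947 in edgeR). *Tekt1* (chr11:72344722-72362442, minus) had 2.46 and 2.45 CPM against 0.273 and 0.309 CPM (-3.07, SE 0.39, adjusted p = 0.000237 in edgeR). *Tekt4* was also called lower from a low level, with 0.622 and 0.360 CPM against 0 and 0.0476 CPM, and *Tekt2* was not, at -0.03 (adjusted p = 0.953 in edgeR). Within each class, genes lower in cKO by several fold therefore stood beside genes with nearly the same level.

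Of the 20 *Cfap* genes, 8 were lower in cKO at P8. They were *Cfap46* and *Cfap54* of the central pair, *Cfap44* of the complex that tethers an inner arm, the microtubule inner protein genes *Cfap52*, *Cfap126* and *Cfap161*, and *Cfap73* and *Cfap206*. *Cfap46* (chr7:139600951-139683817, minus) had 4.74 and 4.64 CPM in WT and 1.28 and 1.20 CPM in cKO (log2 fold change -1.92, SE 0.19, adjusted p = 5.78e-05 in edgeR). *Cfap54* (-1.13), *Cfap44* (-0.89) and *Cfap52* (-0.61) were lower by less. For *Cfap73*, with 0.471 and 0.125 CPM in WT and no read in either cKO library, the mean was at least 14.7-fold lower, taking as floor 3 counts in the group, or 0.0191 CPM.

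The remaining classes held few calls. Of the assembly factors, *Dnaaf3*, which shares exon positions with *Tnni3* on the same strand, was lower in cKO at P8. It had 16.5 and 14.0 CPM against 4.42 and 8.61 CPM (log2 fold change -1.23, SE 0.26, adjusted p = 0.00533 in edgeR). *Dnaaf2* and *Dnaaf5* were at -0.0049 and 0.43, under the fold required. *Dnaic1* was higher, with 0.706 and 0.748 CPM against 2.13 and 1.38 CPM (1.26, SE 0.34, adjusted p = 0.0173 in edgeR), and lost the call without either P8-WT library or without P8-cKO replicate 1 (up to 0.118). As at P6, the counts given to *Dnaic1* may include reads of *Enho*. *Dnal4* was at 0.05 (adjusted p = 0.813 in edgeR). *Dnal1*, named after its values were seen, had 50.6 CPM in P8-WT replicate 1 and 10.2 CPM in replicate 2, so its comparison at P8 has little precision.

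None of the 6 *Spag* genes was called at any time point by edgeR or by DESeq2. At an unadjusted p below 0.05 there were 1 higher and 2 lower at P1 (12.7% and 9.08% of all genes), 1 higher and 0 lower at P6 (18.3% and 18.0%), and 0 of either kind at P8 (23.8% and 18.9%). *Spag9* (chr11:93996091-94126085, plus) had 273 and 284 CPM in WT and 258 and 262 CPM in cKO at P8 (log2 fold change -0.10, SE 0.059, adjusted p = 0.240 in edgeR). Over the whole list, 27 members were called at none of the 3 time points, 3 were lower at all of them (*Dnah5*, *Dnah9* and *Rsph4a*), 3 at P6 and P8 (*Dnah6*, *Tekt1* and *Cfap46*), and 12 at P8 but not earlier.

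*Foxj1* (chr11:116330704-116335399, minus), which directs the motile cilia programme, was not called lower in cKO at any time point. At P1 it had 214 and 221 CPM in WT and 205 and 223 CPM in cKO, with overlapping groups (log2 fold change -0.02, SE 0.084, adjusted p = 0.921 in edgeR, and above 0 without P1-WT replicate 2 or P1-cKO replicate 1). At P6 it had 71.1 and 84.4 CPM against 128 and 121 CPM (0.68, SE 0.085, adjusted p = 0.000346 in edgeR). At P8 it had 24.1 and 25.5 CPM against 42.4 and 39.2 CPM (0.72, SE 0.086, adjusted p = 0.000172 in edgeR). Both cKO libraries were above both WT libraries at P6 and P8. Without P6-WT replicate 1 the P6 difference was 0.56, under the fold required.

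Set beside it, the summed level of the 5 heavy chains without *Dnah8* differed between the labels in the opposite direction at P6 and P8. From P1 to P6 both fell under either label. The heavy chain sum was 78.4 and 79.0 CPM in WT and 53.2 and 53.4 CPM in cKO at P1. At P6 it was 24.3 and 24.1 CPM against 12.2 and 14.9 CPM, and at P8 it was 25.6 and 27.6 CPM against 7.05 and 8.18 CPM. The cKO libraries had the lower sum at each time point while *Foxj1* was level at P1 and higher at P6 and P8.

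**Figure D3:**
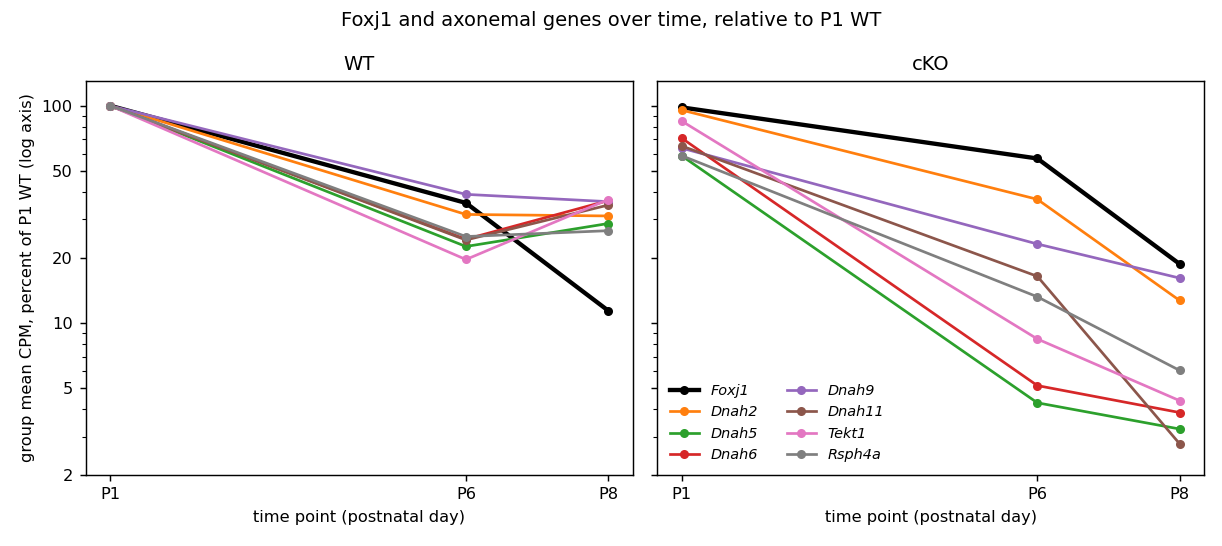
Group mean CPM of Foxj1 and of 7 axonemal genes at P1, P6 and P8 as a percentage of the P1-WT mean, on a log axis, with WT on the left and cKO on the right. In WT Foxj1 ended below the axonemal genes, at 11.4%, and in cKO it stayed above them, at 18.7% against 2.78% for Dnah11.

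Members called between P1 and P6 were mostly lower at P6 under either label. In WT 27 were lower at P6 than at P1, 55.1% against 10.9% of all genes, and 3 were higher, against 12.2%. In cKO 24 were lower, 49% against 10.4%, and 2 were higher, against 11.0%. *Tekt1* and *Cfap100* had the largest falls in WT among members over 1 CPM, with log2 fold changes of -2.35 (SE 0.35) and -2.22 (SE 0.20), and *Dnah6* and *Dnah5* those in cKO, with -3.78 (SE 0.28) and -3.77 (SE 0.22). *Spag4*, which encodes a protein of the nuclear envelope, rose in both, by 1.83 (SE 0.25) and 1.20 (SE 0.25) on the log2 scale, and *Dnaic1* rose in cKO by 1.37 (SE 0.31).

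Between P6 and P8 the labels parted. In WT 7 members fell, 14.3% against 10.3% of all genes, and 1 rose, against 8.66%. That rise, of *Dnah8*, was not called by DESeq2. In cKO 20 fell, 40.8% against 12.2%, and 1 rose, against 11.9%. The WT falls were fewest without P6-WT replicate 2, at 3. *Foxj1* fell in both, by 1.65 (SE 0.088) in WT and by 1.61 (SE 0.087) in cKO on the log2 scale, whereas *Dnah11* fell by 2.53 (SE 0.35) in cKO and had 1.51 and 2.16 CPM at P6 and 2.29 and 3.05 CPM at P8 in WT. *Dnaic1* also fell in both, by 1.51 (SE 0.34) and 2.52 (SE 0.33).

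Relative to P1-WT, *Foxj1* stood at 35.7% in P6-WT and 57.2% in P6-cKO, and at 11.4% and 18.7% at P8. *Dnah5* stood at 22.5% and 4.29% at P6 and at 28.7% and 3.25% at P8. *Dnah11* stood at 34.9% in P8-WT and 2.78% in P8-cKO. In WT, *Dnah5* and *Dnah11* were not called between P6 and P8, whereas *Foxj1* went on falling.

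Whether the genotype effect differed between time points was tested with interaction terms, called by adjusted p alone. Between P1 and P6 it differed for 8 members, beside 15.3% of all genes, with 5 shifted up (10.2%, against 7.12%) and 3 down (6.12%, against 8.19%). From P6 to P8 it differed for 12, beside 21.5%, and all 12 shifted down (24.5%, against 8.83%). None shifted up by edgeR, by DESeq2 or at an unadjusted p below 0.05, against 12.6% of all genes in edgeR and 18.4% unadjusted. From P1 to P8 it differed for 14, beside 25.7%, with 4 up (8.16%, against 14.0%) and 10 down (20.4%, against 11.7%). The total share of members was close to that of all genes, and toward P8 most shifts were down.

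The shifts from P1 to P8 were -2.36 (SE 0.29) for *Dnah5*, -2.73 (SE 0.36) for *Dnah6* and -3.01 (SE 0.44) for *Dnah11* on the log2 scale. From P6 to P8 *Dnah11* shifted by -3.07 (SE 0.46), *Dnah2* by -1.51 (SE 0.31) and *Cfap46* by -1.26 (SE 0.27). *Foxj1* shifted by 0.70 (SE 0.12) and *Cfap36* by 0.65 (SE 0.11) from P1 to P6. The heavy chains did not share one time of change: *Dnah5* and *Dnah6* already differed at P6, and the shift of *Dnah11* and *Dnah2* fell between P6 and P8.

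**Figure D4:**
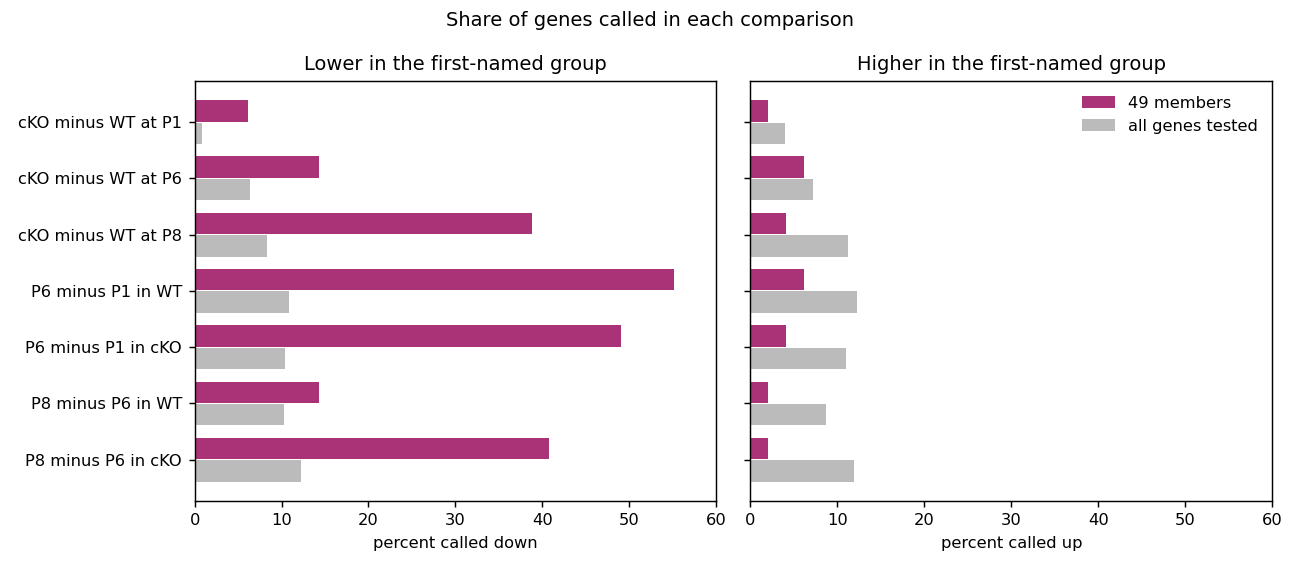
Percentage of the 49 members and of all 17938 genes tested that were called lower or higher in the first-named group of each comparison. Lower calls among members reached 38.8% for cKO minus WT at P8 and 55.1% for P6 minus P1 in WT, and higher calls stayed below the share of all genes throughout.

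*Dnah8* (chr17:30624354-30877365, plus), an outer arm heavy chain best known from sperm, had a course of its own. It had no read in either P1-WT library and 0.0680 and 0.632 CPM in P1-cKO, so that its P1-cKO mean was at least 16.2-fold higher, taking as floor 3 counts in the group, or 0.0213 CPM. This call was lost in 9 of 12 fits with a library left out, all but those without P1-cKO replicate 1, P6-cKO replicate 1 or P6-cKO replicate 2 (adjusted p up to 0.149 in edgeR). At P6 it had 6.00 and 5.74 CPM in WT and 0.183 and 0.0622 CPM in cKO, and at P8 19.3 and 19.9 CPM against 1.64 and 1.97 CPM. Its log2 fold change was -5.56 (SE 0.74, adjusted p = 0.000809 in edgeR) at P6 and -3.44 (SE 0.58, adjusted p = 0.0021 in edgeR) at P8. In WT it rose at least 276-fold from P1 to P6, while the other 5 heavy chains fell.

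The summed level of 8 fibroblast markers gave nearly the same order of groups, with P6-WT and P8-cKO exchanged. It was 365 to 388 CPM in P1-WT and 2637 to 2673 CPM in P1-cKO, 7641 to 7719 CPM and 2415 to 2592 CPM at P6, and 28780.5 to 30929 CPM and 8133 to 8377 CPM at P8. Of the 8, 7 were called higher in cKO at P1 and the same number lower at P6 and at P8. Among all genes tested, 4.01% were called higher at P1, and 6.38% and 8.37% lower at P6 and P8. *Lum* had no read in P6-cKO. The part of these cells in the result for *Dnah8* was not tested.

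Markers of other cells did not share one direction at P8. In cKO the astrocyte sum was lower and the ependymal sum close to WT, although the median ependymal marker was lower. The sum of 8 microglial markers was higher in cKO, with 1975 to 2060 CPM in WT and 3918 to 3932 CPM in cKO. Over 10 astrocyte markers the sum was 2310.4 to 2356 CPM in P1-WT and 2219 to 2272 CPM in P1-cKO, 1722 to 1894 CPM and 1657 to 1821 CPM at P6, and 1799 to 2178 CPM and 765 to 780.2 CPM at P8, where 6 of 10 were called lower in cKO. Over 9 ependymal markers, none of them a member, the sum was 257 to 262 CPM in WT and 335 to 339.7 CPM in cKO at P1. It was 99.1 to 110.2 CPM and 246 to 263 CPM at P6, and 76.5 to 81.3 CPM and 72.1 to 72.9 CPM at P8. The list was not cleared of cilium genes outside the members. Most of this sum was *Cd24a*, which other cells express too. At P6, *Cd24a* and *Rarres2* were called higher and *Fam216b* lower in cKO, and at P8 *Fam216b* lower, with 3.96 ± 0.703 CPM in WT and 0.266 ± 0.0101 CPM in cKO (SD, n = 2, log2 fold change -3.88, adjusted p = 2.82e-05 in edgeR). *Tmem212*, a defining ependymal marker, had no read in P1-WT and P6-WT and *Fam183b* none in P6-WT. The share of ependymal cells in these results was not tested.

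**Figure D5:**
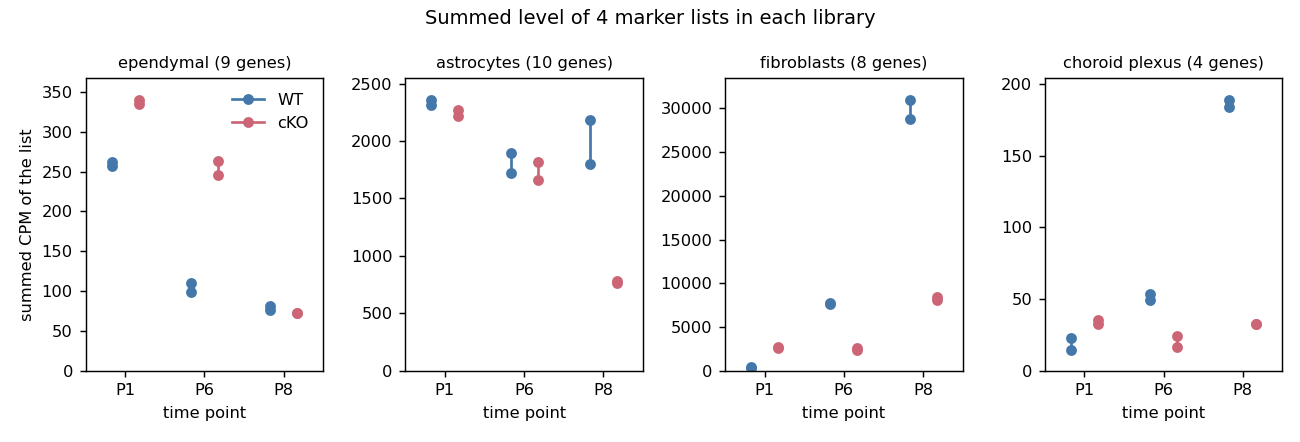
Summed CPM of 4 lists of cell type markers at each time point, with the 2 libraries of a group joined by a line, on linear axes from 0. The fibroblast sum was higher in cKO at P1 and lower at P6 and P8, and the astrocyte sum at P8 was 1799 to 2178 CPM in WT against 765 to 780.2 CPM in cKO.

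Over 4 choroid plexus markers the sum was 14.5 to 23.0 CPM and 32.8 to 35.6 CPM at P1, 49.7 to 53.5 CPM and 16.4 to 24.5 CPM at P6, and 184 to 189 CPM and 32.7 to 32.9 CPM at P8. *Aqp1* made up most of the WT sums at P6 and P8, and *Folr1* was called higher in cKO at all time points. Among the other lists, at P1, P6 and P8 in turn, calls higher and lower in cKO numbered 1 and 0, 3 and 0, and 2 and 0 of 4 neuronal markers, 0 and 0, 3 and 1, and 3 and 2 of 7 stem cell markers, and 0 and 0, 0 and 4, and 0 and 1 of 12 proliferation markers. They numbered 0 and 2, 0 and 1, and 5 and 1 of 8 microglial markers, and 1 and 0, 0 and 2, and 1 and 3 of 7 oligodendrocyte lineage markers. For 4 endothelial markers they were 2 and 0, 0 and 3, and 1 and 2, and for 4 mural markers 2 and 0, 0 and 3, and 1 and 1. The 0 and 0 counts, both from P1, were the same in DESeq2. There an unadjusted p below 0.05 gave 2 higher and 2 lower stem cell markers, and 0 higher and 7 lower proliferation markers. The matching shares of all genes tested were 12.7% higher and 9.08% lower. For the edgeR calls of these lists, the background of higher genes grew with age from 4.01% through 7.16% to 11.2%. That of lower genes grew from 0.892% through 6.38% to 8.37%.

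Axonemal genes under other names were also lower in cKO at P8 more often than higher. Of 36 further motile cilia genes, 1 was lower and 0 were higher in cKO at P1, 2 were lower and 0 higher at P6, and 11 were lower and 1 higher at P8, with a median log2 fold change of -0.44 at P8. In the same order, DESeq2 gave 1 lower and 0 higher, 3 and 2, and 12 and 2, and an unadjusted p below 0.05 gave 9 and 0, 3 and 3, and 15 and 2. Over all genes tested, lower and higher calls in edgeR made up 0.892% and 4.01%, 6.38% and 7.16%, and 8.37% and 11.2%. At the unadjusted p these shares were 9.08% and 12.7%, 18.0% and 18.3%, and 18.9% and 23.8%. *Ccdc40*, whose product sets the spacing of inner arms and spokes, had 4.92 ± 0.531 CPM in WT and 1.59 ± 0.163 CPM in cKO at P8 (SD, n = 2, log2 fold change -1.63, adjusted p = 2.56e-05 in edgeR). *Wdr66*, a radial spoke gene, was lower at all 3 time points, with log2 fold changes of -1.08, -0.88 and -1.13. The other 9 lower at P8 were *Ak7*, *Ccdc113*, *Ccdc65*, *Drc1*, *Drc3*, *Dynlrb2*, *Iqub*, *Lrrc23* and *Wdr78*, of which *Drc1*, *Drc3* and *Ccdc65* belong to the nexin-dynein regulatory complex. *Ropn1l*, of the spoke stalk, was higher at P8.

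Genes that act above or beside the axoneme held few calls, which need both the adjusted p and a change of 1.5-fold. More genes passed an unadjusted p at P8, where no fold was required. Some transport genes also passed the adjusted p there with a smaller change. Among them were *Wdr35*, lower in cKO (log2 fold change -0.52, adjusted p = 0.000211 in edgeR), and *Kif3b*, higher (0.31, adjusted p = 0.000711 in edgeR). Of 14 regulators of multiciliation, 0 were called at P1, *Rfx4* was higher in cKO at P6, and at P8 *Six3* was higher and *Gmnc* lower. *Gmnc*, which encodes the geminin family protein that starts multiciliation, had 2.11 ± 0.343 CPM in WT and 0.618 ± 0.0837 CPM in cKO at P8 (SD, n = 2, log2 fold change -1.76, adjusted p = 0.00272 in edgeR), opposite in direction to *Foxj1*. Of 32 intraflagellar transport genes, which serve primary and motile cilia alike, 0 were called at P1 and P6 and *Ttc21b* was lower at P8. There an unadjusted p below 0.05 gave 5 higher and 10 lower, beside 23.8% and 18.9% of all genes, and DESeq2 called 0 and 3. Of 35 genes of the primary cilium and transition zone, 0 were called at P1 and P6. At P8, 0 of the 35 were higher and 17 lower at an unadjusted p below 0.05, beside 23.8% and 18.9% of all genes, with a median log2 fold change of -0.23 over the list.

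For these lists of 0 calls in edgeR, DESeq2 gave 1 lower regulator at P1 and none of the transport or primary cilium genes at P1 and P6. At an unadjusted p below 0.05 there were 0 higher and 2 lower regulators at P1, 1 higher and 4 lower transport genes at P1 and 5 and 2 at P6, and 1 higher and 2 lower primary cilium genes at P1 and 5 and 1 at P6. Beside these, 12.7% of all genes were higher and 9.08% lower at P1, and 18.3% and 18.0% at P6.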

How the data were processed

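RNA-seq of 12 libraries was used. The authors deposited counts, whole numbers of reads per gene without normalization, after mapping to GRCm38 with HISAT2. No source used here gives the program that counted them, its strand setting or what it did with multiply mapped reads, so overlapping genes and near-identical copies could share reads. The study's own tests used ballgown and DESeq2 with a fold change of 1.5.

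The analysis ran in R 4.3.3, with edgeR 4.0.16 (and limma 3.58.1 loaded by it). Genes passed filterByExpr, libraries were scaled by TMM (factors 0.943 to 1.07), and the quasi-likelihood model gave each of the 6 groups its own mean, so that groups of 2 shared 1 estimate of the spread. The common biological coefficient of variation was 0.178. Log2 fold changes use a prior count of 0.125. CPM are per TMM-scaled library, and levels between genes were compared per kilobase of GENCODE vM21 exon. Of the 18903 identifiers, 18861 were in that annotation, as were all 49 members. Depth limits precision at low levels: 10 counts stood for 0.149 CPM in the median library. An exact permutation test of 2 against 2 libraries cannot go below p = 0.333, so none is given.

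Members named with full values were *Foxj1*, the called members with a mean of at least 1 CPM (at most 8 per direction and time point), the 3 interaction terms with the smallest adjusted p, the 2 largest rises and falls per step, and the highest member of each class per kilobase. Others are named to complete a count. The members, the lists of further motile cilia genes, multiciliation regulators, intraflagellar transport, primary cilium and cell type markers were chosen with earlier results of these data known. Alternatives were DESeq2 size factors, DESeq2 1.42.0 on all libraries, no filter, the compared time points alone, a replicate block, a fold change of at least 2, an unadjusted p, and each library left out. A library left alone in its group then took its spread from the other groups. The scripts were first tested on simulated data. The adjusted calls of the primary cilium list at P8 are not reported here.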

Additional observations from a re-analysis of the deposited data

Results flagged for a closer look

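Interaction terms of edgeR's quasi-likelihood test drew attention to the members whose difference between cKO and WT changed between time points. From P1 to P6 the log2 difference shifted by 0.65 for *Cfap36* (adjusted p = 0.00373) and by 0.70 for *Foxj1* (adjusted p = 0.00375), and the fitted shift of *Dnah8* was -13.11 (adjusted p = 0.00122), a size that rests on a group with no reads and on the prior count. From P6 to P8 it shifted by -3.07 for *Dnah11* (adjusted p = 0.00127), by -1.51 for *Dnah2* (adjusted p = 0.00737) and by -1.26 for *Cfap46* (adjusted p = 0.0091). From P1 to P8 it shifted by -2.36 for *Dnah5* (adjusted p = 0.000276), by -2.73 for *Dnah6* (adjusted p = 0.00044) and by -3.01 for *Dnah11* (adjusted p = 0.000895). For *Dnah5*, *Dnah6* and *Dnah11* the libraries labelled cKO were lower than those labelled WT at each time point. On the log2 scale, though not in CPM for each of them, the gap was widest at P8.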

How the results depend on the processing

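Over 25 differences of named members, 116 of 124 values under other settings than leaving out a library kept direction and call, and 8 kept the direction but lost the call. With 1 library left out, 251 of 300 values kept both, 47 lost the call, and 2 reversed, both for *Foxj1* at P1, where nothing was called (2.68e-05 without P1-WT replicate 2 and 0.0321 without P1-cKO replicate 1, in a range from -0.0847 to 0.0321). Among genotype calls at P1, higher and lower members numbered 1 and 3 in the main analysis, 0 higher with the time points alone, 0 and 1 with the replicate block, 0 lower at a fold change of at least 2, and 5 lower at an unadjusted p. At P6 (3 and 7) they were 4 lower with the time points alone, 1 and 4 at the fold change of 2, and 5 higher at an unadjusted p. At P8 (2 and 19) 1 was higher at the fold change of 2. For P8 minus P6 in WT (1 and 7) 2 rose in DESeq2, 0 with the block and 4 at an unadjusted p, and 2 fell at the fold change of 2. The 2 in DESeq2 did not include *Dnah8*, the rise called in the main analysis. Interaction terms at an unadjusted p numbered 19 for P6 to P8 (12) and 22 for P1 to P8 (14). The cause of these changes was not tested. With a library left out, counts ranged from 0 to 1 higher and 0 to 3 lower at P1, 2 to 5 and 5 to 7 at P6, and 1 to 2 and 14 to 19 at P8. For interactions they ranged from 6 to 8, 6 to 13 and 9 to 18, for P6 minus P1 from 2 to 3 up and 22 to 28 down in WT and 2 to 2 and 19 to 25 in cKO, and for P8 minus P6 from 0 to 3 and 3 to 8 in WT and 1 to 1 and 15 to 21 in cKO. Members expressed at 1 CPM or more stayed at 44 to 45, against 31 and 48 under the stricter and the looser definition. Over 15 pairs of groups, deviations of libraries with the same replicate number correlated by -0.0398 to 0.0811. The counts thus showed no pairing by number, but this cannot tell whether cultures of the same number were prepared together. Beyond the counts above, the block kept all 19 lower calls at P8.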
